A study of Mus musculus with 10 samples.

Results

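The mouse genes named Zfp900 to Zfp999 are a numbered block of zinc finger genes. All rows of the gene count table whose symbol is Zfp followed by a 9 and another pair of digits were taken, which gave 64 of the 54532 genes, 63 of them protein coding and 1 (Zfp939) a transcribed pseudogene. They were chosen by their measured counts: Zfp991, Zfp960 and Zfp947 went from almost no reads in control lungs to clear signal after LPS. Their values in LPS against Vehicle are therefore what chose them, and are given below as a description. Where a member is said to be called, it passed a threshold in the fit over all genes; for the members such a call is part of what chose them and supports nothing. The same holds for LPS+TSLP against Vehicle, which uses the same Vehicle libraries.

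The study sequenced RNA of whole lung from mice labelled WT (wild type) in 3 groups: Vehicle with 3 libraries, LPS with 3 and LPS+TSLP with 4. LPS is lipopolysaccharide, a cell wall component of Gram-negative bacteria that triggers acute lung inflammation through the receptor TLR4. TSLP is thymic stromal lymphopoietin, a cytokine of barrier epithelium. The composition of the vehicle, the doses, the route, the times, and the age and strain of the mice are not given in the sources used here, and nothing in the labels ties a library to an animal of its own, so p-values measure the spread between these samples. In whole tissue, fewer cells of a type and less RNA per cell cannot be told apart.

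Most genes of this kind encode KRAB zinc finger proteins, the largest family of DNA-binding repressors in mammals. An array of C2H2 fingers reads a stretch of DNA, and the KRAB domain at the other end of the protein binds the scaffold Trim28, which brings in the histone methyltransferase Setdb1 and heterochromatin proteins. Many family members bind and silence endogenous retroviruses and other transposable elements. The genes lie in clusters that grew by repeated duplication, so neighbours often have nearly the same sequence, and the long exon that encodes the fingers is rich in A and T.

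The longest annotated coding sequence of each gene was translated and searched for these parts. A short residue pattern of the KRAB box was found in 55 of the 63 coding members, against 284 of all 22527 genes with a coding transcript (1.26%). At least 3 finger patterns were found in 59 of the 63, against 2.54% of all genes. Members had a median of 11 finger patterns, from 0 to 21. Zfp991 had 11 finger patterns and the KRAB pattern, Zfp960 had 13 and the KRAB pattern, and Zfp947 had 9 without the KRAB pattern.

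The finger sequences show how alike the copies are. Each line below is 1 finger of 84 bases, 5′ to 3′ on the coding strand, in GENCODE M21 transcripts of GRCm38. In the lines of Zfp991, Zfp960 and Zfp947 the capitals mark the conserved linker that joins a finger to the next. In the line of Zfp994 they mark the 2 bases that differ from Zfp947. The Zfp991 finger lies at chr4:147178975-147179058 (plus strand, exon 7), the Zfp960 finger at chr17:17087827-17087910 (plus strand, exon 4), the Zfp947 finger at chr17:22145720-22145803 (minus strand, exon 5) and the Zfp994 finger at chr17:22201163-22201246 (minus strand, exon 5).
Zfp991: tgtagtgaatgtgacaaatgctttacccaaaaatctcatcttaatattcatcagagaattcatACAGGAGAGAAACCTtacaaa
Zfp960: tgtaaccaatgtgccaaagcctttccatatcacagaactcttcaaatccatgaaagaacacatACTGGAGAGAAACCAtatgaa
Zfp947: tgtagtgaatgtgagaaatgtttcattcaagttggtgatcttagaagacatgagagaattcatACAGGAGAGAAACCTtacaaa
Zfp994: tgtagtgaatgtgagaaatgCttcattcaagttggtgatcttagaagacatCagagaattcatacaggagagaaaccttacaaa
The Zfp991 finger occurs with 0 mismatches in Zfp992 (chr4:146466631-146466714) and in Zfp993 (chr4:146658028-146658111), and the Zfp960 finger with 0 mismatches in Zfp97 (chr17:17145042-17145125). The longest identical run of coding sequence was 484 bases between Zfp991 and Zfp992, 513 between Zfp991 and Zfp993, 507 between Zfp960 and Zfp97, and 84 between Zfp947 and Zfp994. GC content was 32.1% in the Zfp991 finger, 38.1% in that of Zfp960 and 34.5% in that of Zfp947.

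The libraries held 16175172 to 18374461 counts. The members together had 1830 to 2031 counts in a Vehicle library, 5333 to 7086 in an LPS library and 3020 to 8565 in an LPS+TSLP library. Some libraries stood apart. The share of counts in mitochondrial genes was 1.11 to 1.27% in Vehicle and 1.20 to 2.58% in LPS, and 13.1%, 6.50%, 5.35% and 2.0% in LPS+TSLP replicates 1 to 4, so it was above all Vehicle and LPS libraries in 3 of the 4. Its part in the members' levels was not tested. LPS replicate 1 had 206 CPM (the count relative to the TMM-scaled library total) of the female-specific RNA Xist, where the other libraries had at most 0.452 CPM. Lung markers such as Sftpc, Scgb1a1, Ager and Pecam1 were present in all libraries. LPS+TSLP replicate 1 had the lowest Ager (316 CPM, beside 969 to 2992 in the others) and Sftpb (554, beside 1108 to 4078). It also had the lowest Marco (11.1 CPM, beside 16.2 to 115). It had the highest Foxj1 (292 CPM, beside 26.0 to 144), while its Sftpc, Scgb1a1, Pecam1, Cldn5 and Col1a2 lay within the range of the others. The counts and medians of each comparison over the members are given with and without LPS replicate 1 and LPS+TSLP replicate 1; the splits by GC content, sharing and cluster, the values with the GC trend removed and the silencing list were not computed without them.

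Of the 64 members, 45 passed the filter on low counts and were tested, and 19 did not. A member could pass through the group where it is high alone, so counts over the 45 do not speak for all 64. Among the 45, 30 were higher in LPS than in Vehicle at an adjusted p under 0.05, 0 were lower and 15 were not called. Of all 17139 genes tested, 14.2% were called higher and 10.7% lower, and since this contrast chose the members nothing is read from their share. The median log2 fold change of the 45 was 2.37, beside 0.01 over all genes tested, and single members ranged from −0.78 to 5.48. In 33 of the 45 the lowest LPS library exceeded the highest Vehicle library, as in 24.7% of all genes tested, and in 1 they all lay below, as in 25.1% of all genes. Without LPS replicate 1 and LPS+TSLP replicate 1 the count of higher members was 30 and the median 2.63. The share of all genes called higher without these libraries is not given here.

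In LPS+TSLP against Vehicle, 29 of the 45 were called higher and 0 lower, where 8.82% of all genes tested were called higher and 5.35% lower. All 29 are among the 30 above, and the remaining one is Zfp951. The median was 2.42. Leaving out Vehicle replicate 2 left 19 of the 29, and leaving out both set-apart libraries gave 33. The shares of all genes called higher with these libraries left out are not given here. In 29 members all LPS+TSLP libraries lay above all Vehicle libraries, as in 15.7% of all genes tested.

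The other 310 genes named Zfp with a number give a point of reference. Of the 288 tested, 67 were higher and 26 lower in LPS than in Vehicle, with a median log2 fold change of 0.03. In LPS+TSLP against Vehicle 60 were higher and 10 lower. The members' summed level was 97.7 to 111 CPM in the Vehicle libraries and 325 to 400 CPM in the LPS libraries. It was 193 CPM in LPS+TSLP replicate 1 and 352 to 493 CPM in LPS+TSLP replicates 2 to 4. As a share of the summed CPM of all genes named Zfp with a number, members made up 1.79 to 2.04% in Vehicle, 5.92 to 6.73% in LPS and 3.89 to 7.52% in LPS+TSLP.

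**Figure D1:**
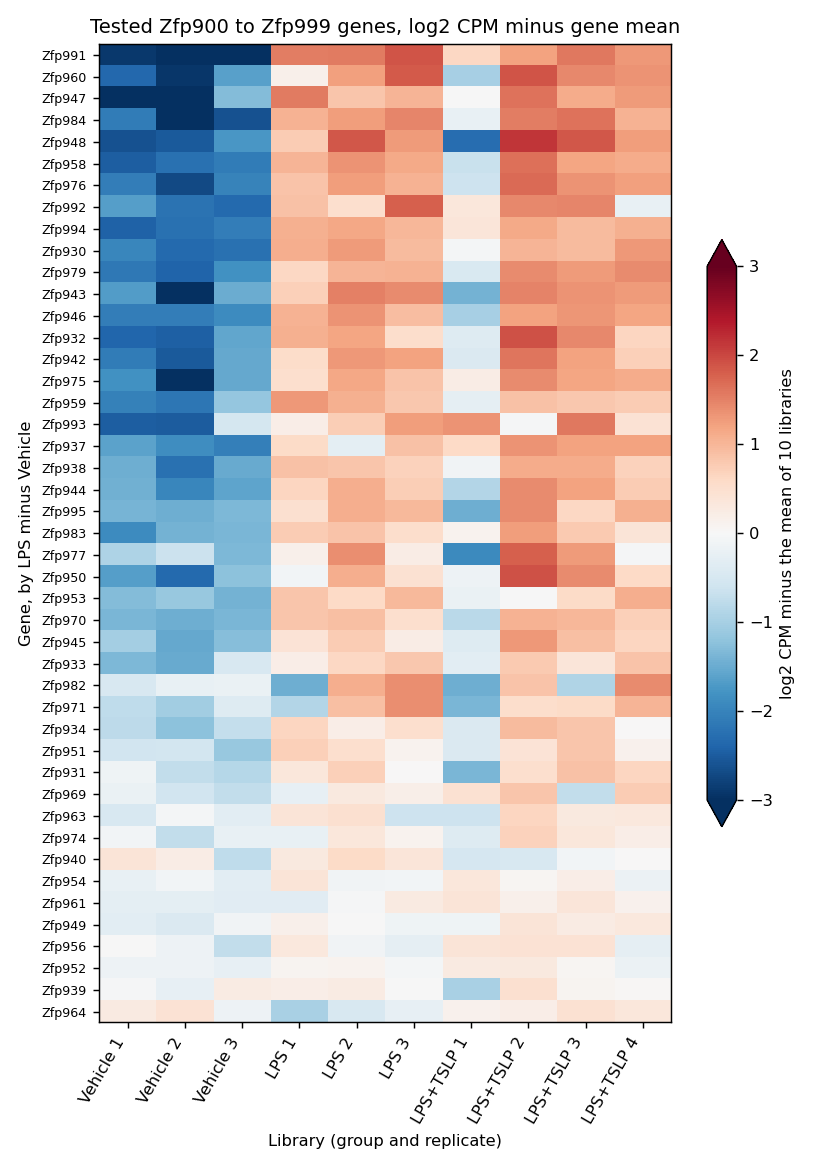
Log2 CPM of the 45 tested members (rows, ordered by LPS minus Vehicle) in each of the 10 libraries (columns), less the gene's mean over the libraries; blue is below and red above that mean, and values past 3 in either direction take the end colour. The upper rows are blue in all 3 Vehicle libraries and red in the LPS libraries. LPS+TSLP replicate 1 lies below the gene's mean, on the blue side, in most rows (median −0.40). The medians of LPS+TSLP replicates 2 to 4 are 0.72 to 1.12.

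Zfp991 (ENSMUSG00000067916, chromosome 4, 147132038 to 147180579, plus strand) had the largest fitted log2 fold change over the 10 libraries. It had 5, 3 and 3 counts in Vehicle replicates 1 to 3 (0.281, 0.160 and 0.164 CPM), 139, 151 and 195 in LPS (8.47, 8.53 and 10.8 CPM), and 69, 117, 160 and 118 in LPS+TSLP (4.41, 6.73, 8.72 and 7.2 CPM). All 7 libraries that received LPS lay far above the 3 Vehicle libraries, and LPS+TSLP replicate 1 was the lowest of the 7. The mean was 0.202 ± 0.0686 CPM in Vehicle (SD, n = 3), 9.28 ± 1.35 in LPS (n = 3) and 6.77 ± 1.78 in LPS+TSLP (n = 4). The log2 fold change was 5.48 (SE 0.41) in LPS and 5.03 (SE 0.40) in LPS+TSLP, each against Vehicle. Its locus overlaps a lowly counted antisense gene (36 counts over all libraries) and an overlapping gene on its own strand with 1 count, and whether counting used strand is not given in the sources used here.

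Zfp960 (ENSMUSG00000096696, chromosome 17, 17064113 to 17089628, plus strand) had 1, 0 and 3 counts in Vehicle, 14, 34 and 54 in LPS, and 5, 54, 41 and 34 in LPS+TSLP. In CPM these were 0.056, 0 and 0.164, then 0.853, 1.92 and 3.0, then 0.320, 3.11, 2.24 and 2.08. All Vehicle libraries lay below all others, though LPS+TSLP replicate 1 came close to them and rests on 5 reads, and the LPS and LPS+TSLP libraries overlapped. The log2 fold change was 4.59 (SE 1.01) in LPS and 4.6 (SE 0.99) in LPS+TSLP, with only 4 Vehicle reads in all behind both. Leaving out 1 library at a time moved the first from 4.02 to 5.80, the highest value without Vehicle replicate 3.

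Zfp947 (ENSMUSG00000063383, chromosome 17, 22144359 to 22166190, minus strand) had 0, 0 and 5 counts in Vehicle, 44, 28 and 33 in LPS, and 13, 49, 36 and 36 in LPS+TSLP. In CPM these were 0, 0 and 0.273, then 2.68, 1.58 and 1.83, then 0.832, 2.82, 1.96 and 2.20. Every library with LPS exceeded every Vehicle library, and all Vehicle reads came from replicate 3. The log2 fold change was 4.37 (SE 0.94) in LPS and 4.32 (SE 0.92) in LPS+TSLP. Without Vehicle replicate 3 there are 0 Vehicle reads and the fitted fold has no base, so the place of Zfp947 relative to Zfp991 rests on that library. In LPS+TSLP against Vehicle, Zfp947 and Zfp960 were no longer called when Vehicle replicate 1 or Vehicle replicate 2 was left out.

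Members with more reads in Vehicle changed too. Zfp984 (chromosome 4, 147753974 to 147809788) had 1.85, 0.907 and 1.26 CPM in Vehicle, 17.4, 19.9 and 23.1 in LPS, and 7.16, 24.2, 26.2 and 17.3 in LPS+TSLP. Vehicle stood well below both other groups, which overlapped, with the first LPS+TSLP library the lowest of them, and the log2 fold change in LPS was 3.90 (SE 0.47). Zfp948 (chromosome 17, 21567008 to 21588699) had 0.843, 0.907 and 1.64 CPM in Vehicle, 9.93, 21.4 and 14.2 in LPS, and 1.09, 26.1, 21.4 and 13.9 in LPS+TSLP. Here LPS+TSLP replicate 1, with 17 counts, lay inside the Vehicle range while the other LPS+TSLP libraries lay with LPS, and the log2 fold change was 3.74 (SE 0.85) in LPS and 3.78 (SE 0.83) in LPS+TSLP.

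Zfp958 (chromosome 8, 4613167 to 4630231) went from 0.473 ± 0.0767 CPM in Vehicle to 6.22 ± 0.771 in LPS and 5.65 ± 2.94 in LPS+TSLP, a log2 fold change of 3.70 (SE 0.55) in LPS. Zfp994 (chromosome 17, 22197265 to 22225616) was among the tightest: 0.786, 0.907 and 1.04 CPM in Vehicle, 9.99, 10.6 and 9.5 in LPS, and 6.14, 10.6, 9.21 and 9.95 in LPS+TSLP. Its log2 fold change was 3.45 (SE 0.31) in LPS and 3.29 (SE 0.30) in LPS+TSLP, and its 7 LPS-exposed libraries were far above Vehicle.

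Zfp979 (chromosome 4, 147611937 to 147642513), a gene with only 3 finger patterns, had 0.281, 0.214 and 0.382 CPM in Vehicle, 2.56, 3.45 and 3.50 in LPS, and 1.15, 4.55, 4.14 and 4.58 in LPS+TSLP. The low LPS+TSLP value is again that of replicate 1, and it still exceeded Vehicle. The log2 fold change was 3.41 (SE 0.57) in LPS and 3.60 (SE 0.55) in LPS+TSLP.

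**Figure D2:**
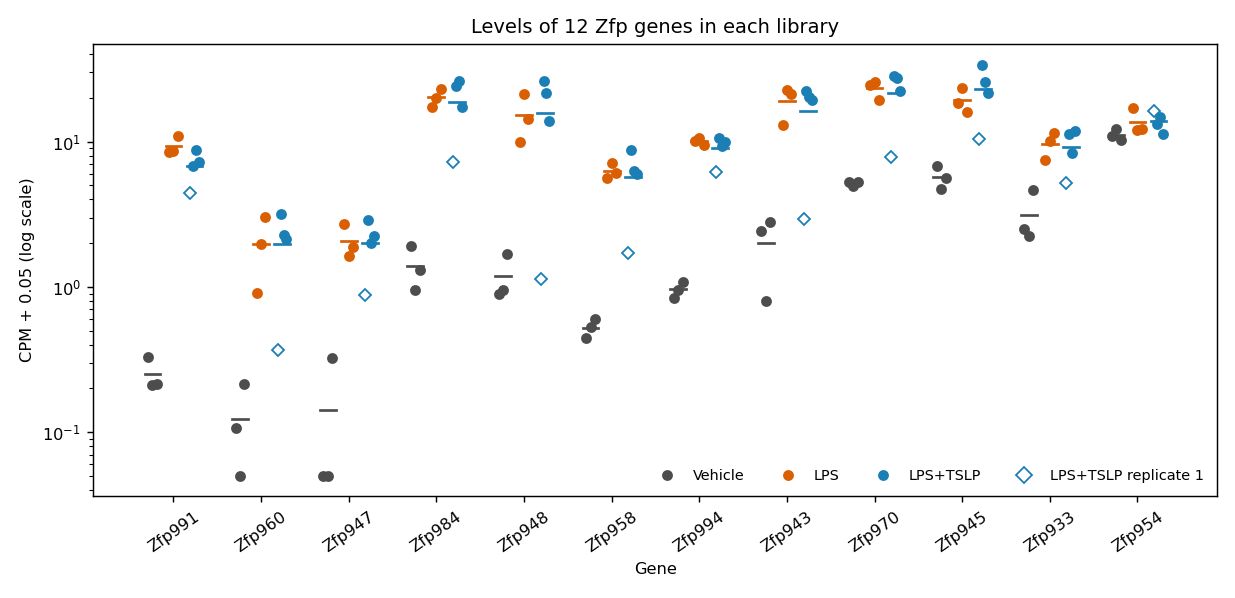
CPM plus 0.05 (log scale) of 12 members in each library, with the mean of each group as a bar; circles are libraries of Vehicle (grey), LPS (orange) and LPS+TSLP (blue), and the open diamond is LPS+TSLP replicate 1. Zfp991, Zfp960 and Zfp947 start at or under 0.281 CPM in Vehicle, and Zfp954 on the right is at a similar level in all groups.

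The smallest changes among called members, and the most abundant members, follow. Zfp970 (chromosome 2, 177464733 to 177478129), the member with the highest level per kilobase of gene model (7.87 CPM per kb over all libraries), had 5.22, 4.91 and 5.24 CPM in Vehicle, 24.6, 25.8 and 19.4 in LPS, and 7.80, 28.3, 27.2 and 22.3 in LPS+TSLP. The Vehicle libraries lay close together and all others were above them, for a log2 fold change of 2.18 (SE 0.40) in LPS. Zfp945 rose from 5.67 ± 1.03 CPM in Vehicle to 19.3 ± 3.81 in LPS, a log2 fold change of 1.77 (SE 0.37). Zfp953, Zfp933, Zfp934 and Zfp951 had log2 fold changes of 2.20, 1.64, 1.40 and 1.24 in LPS.

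Next to Zfp970 the highest levels per kilobase were 5.41 CPM per kb for Zfp954, 4.78 for Zfp984, 4.20 for Zfp948 and 3.22 for Zfp944. Zfp954 (chromosome 7, 7114690 to 7121488) had 10.9, 12.1 and 10.2 CPM in Vehicle, 16.9, 11.9 and 12.1 in LPS, and 16.1, 13.2, 14.8 and 11.3 in LPS+TSLP. The groups overlapped, the log2 fold change in LPS was 0.30 (SE 0.23), and the gene was not called. Here LPS+TSLP replicate 1 was the highest LPS+TSLP library. In 38 of the 45 members it was the lowest, as in 6600 of all 17139 genes tested, and Zfp954 and Zfp961 were the 2 in which it was the highest. Of the 30 members called in LPS, 28 had LPS+TSLP replicate 1 above all Vehicle libraries, the exceptions being Zfp948 and Zfp995.

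Members that share a chromosomal neighbourhood are not independent observations, and a good part of the called genes come from a pair of clusters (members joined where gaps were under 1 Mb). The cluster at chromosome 17, 21567008 to 22867134, holds 10 members, all tested and all called higher in LPS and in LPS+TSLP, with log2 fold changes in LPS from 1.77 (Zfp945) to 4.37 (Zfp947) and a median of 3.20. Over all genes tested 14.2% were called higher in LPS, and 38.0% of those in the lowest bin of GC content described below, so the counts by place are read as a description only. Besides those above it holds Zfp943 (3.28), Zfp946 (3.26), Zfp942 (3.14), Zfp944 (2.55), Zfp995 (2.45) and Zfp983 (2.37). The cluster at chromosome 4, 145510759 to 147848366, holds 16 members, of which 7 were tested and 6 were higher: Zfp991, Zfp984, Zfp992, Zfp979, Zfp993 and Zfp933. Zfp982 was tested there and not called, with 2, 3 and 3 counts in Vehicle, 0, 10 and 13 in LPS and 0, 8, 1 and 12 in LPS+TSLP. Its libraries overlapped widely.

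The cluster at chromosome 2, 175372436 to 178078476, holds 10 members with 4 tested, and only Zfp970 was called. At chromosome 7, 42579783 to 43192109, 2 of 3 tested members were called. Within 500 kb of Zfp947 lay 33 genes, of which 16 were tested and 14 called higher in LPS, 7 of them among the 9 tested genes that are not members. Those 7 include other Zfp genes: Zfp758 (log2 fold change 3.77), Zfp229 (2.89), Zfp820 (2.80) and Zfp760 (2.33). Within 500 kb of Zfp960 lay 17 genes and no other member, and 6 of the 10 tested were called higher. Within 500 kb of Zfp991 lay 37 genes, only 4 of which were tested, with 3 called higher. No gene was called lower in these neighbourhoods.

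The untested members had few reads. Among the 64 members, 20 were under 1 CPM in all 10 libraries and 4 (Zfp935, Zfp986, Zfp988 and Zfp990) had 0 counts in all of them, which allows up to 3 counts over the libraries by counting error. That limit covers counted reads alone, since reads that fit several genes may not have been counted. Of the 19 untested members, 12 share at least 50% of their 50-base stretches with other genes (sharing is described below). There were 14 members with 0 counts in all 3 Vehicle libraries, and 10 of these had at least 1 count elsewhere. Zfp941, the untested member with the most reads (64 in all), went the other way: 9, 10 and 9 counts in Vehicle, 3, 2 and 4 in LPS, and 8, 4, 6 and 9 in LPS+TSLP. Its LPS libraries lay below all Vehicle libraries, and it was picked here after its values were seen. Near Zfp991, Zfp978 had 1 and 2 counts in LPS replicates 2 and 3, and Zfp989 had 2 counts in LPS replicate 3 with 2 and 1 in LPS+TSLP replicates 3 and 4, so no level can be compared for them at this depth.

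GC content moved with the groups. The 64 members had a median GC content of 38.6% over the longest transcript, the other Zfp genes 46.0% and all genes tested 49.7%. Genes were split by GC content into 5 bins of 20% of the genes each. In the lowest bin (22.1 to 43.9% GC), which held 41 of the 45 tested members and all 30 called, the median log2 fold change of all 3425 genes in LPS was 0.78, with 38.0% called higher and 1.40% lower. In the other bins 12.3%, 7.97%, 6.66% and 6.16% of genes were called higher, from low to high GC content. The genes of the lowest bin lay −0.63, −0.53 and −0.28 (median, log2 units) from their mean over all libraries in Vehicle replicates 1 to 3, 0.19 to 0.36 in LPS, −0.07 in LPS+TSLP replicate 1 and 0.24 to 0.32 in LPS+TSLP replicates 2 to 4. Of the 7 libraries with LPS, LPS+TSLP replicate 1 was the lowest both for these genes and for the members.

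Within the members, lower GC content went with a larger difference. The 29 members under 40% GC had a median log2 fold change of 3.13 in LPS, and 25 were called. The 16 at or over 40% had a median of 0.43, and 5 were called. Of all genes tested, 38.0% were called higher in the lowest bin and 6.16% in the highest, with medians of 0.78 and −0.25. No share of all genes was taken at the 40% cut. This contrast chose the members, so nothing is read from their shares. Over the 45 members Pearson's r between GC content and log2 fold change was −0.62 and Spearman's rho −0.63, a description over genes that share libraries, ancestry and base composition.

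**Figure D3:**
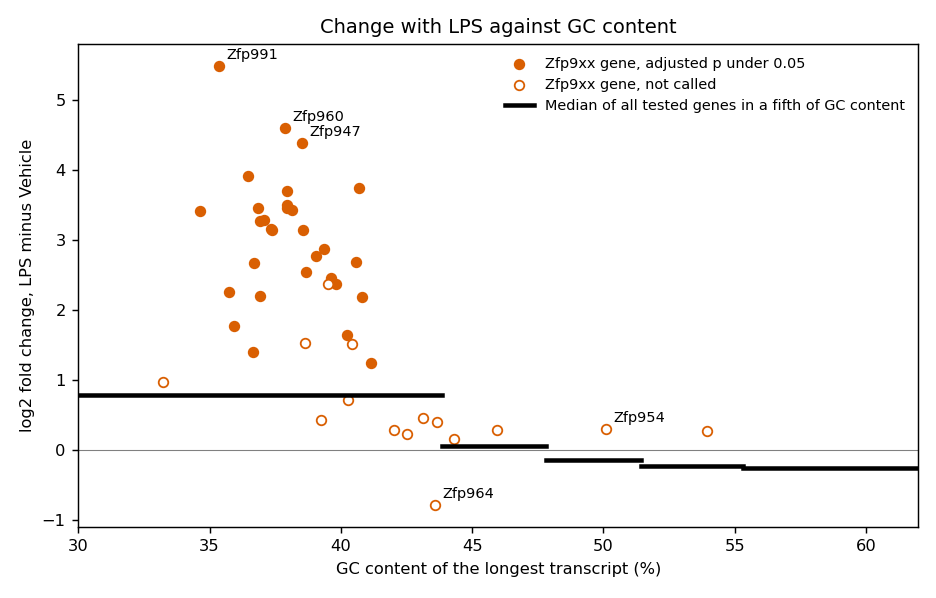
Log2 fold change of LPS minus Vehicle (y axis) against the GC content of the longest transcript in percent (x axis) for the 45 tested members, filled where called; the black bars are the medians of all tested genes in each of 5 bins of GC content. The 30 called members lie at 34.6 to 41.2% GC and above the bar of the lowest bin at 0.78.

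When each library's trend of counts with GC content was removed, 22 of the 45 were higher and 1 lower in LPS, where 10.8% of all genes were called higher and 9.45% lower. All 22 are among the 30. The median fell to 1.26. In LPS+TSLP 18 were higher and 0 lower, where 4.64% and 4.04% of all genes were, and the median was 1.21. At this setting 28 of the 288 other Zfp genes tested were higher and 26 lower in LPS, with a median of −0.15. In LPS+TSLP 23 of them were higher and 6 lower. Zfp991 then had a log2 fold change of 3.69 in LPS, Zfp960 3.25 and Zfp947 3.23, values of the same libraries that chose them. Zfp948 had 2.85 and Zfp994 2.06. Zfp945, by contrast, went from 1.77 to 0.03, Zfp953 from 2.20 to 0.61 and Zfp934 from 1.40 to −0.19. Members with a fold change above 0 went from 44 to 36 of the 45, the furthest being Zfp931 (0.97 to −1.17) and Zfp974 (0.43 to −0.75), which were called at neither setting. The 1 lower member is Zfp964, at −1.20.

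**Figure D4:**
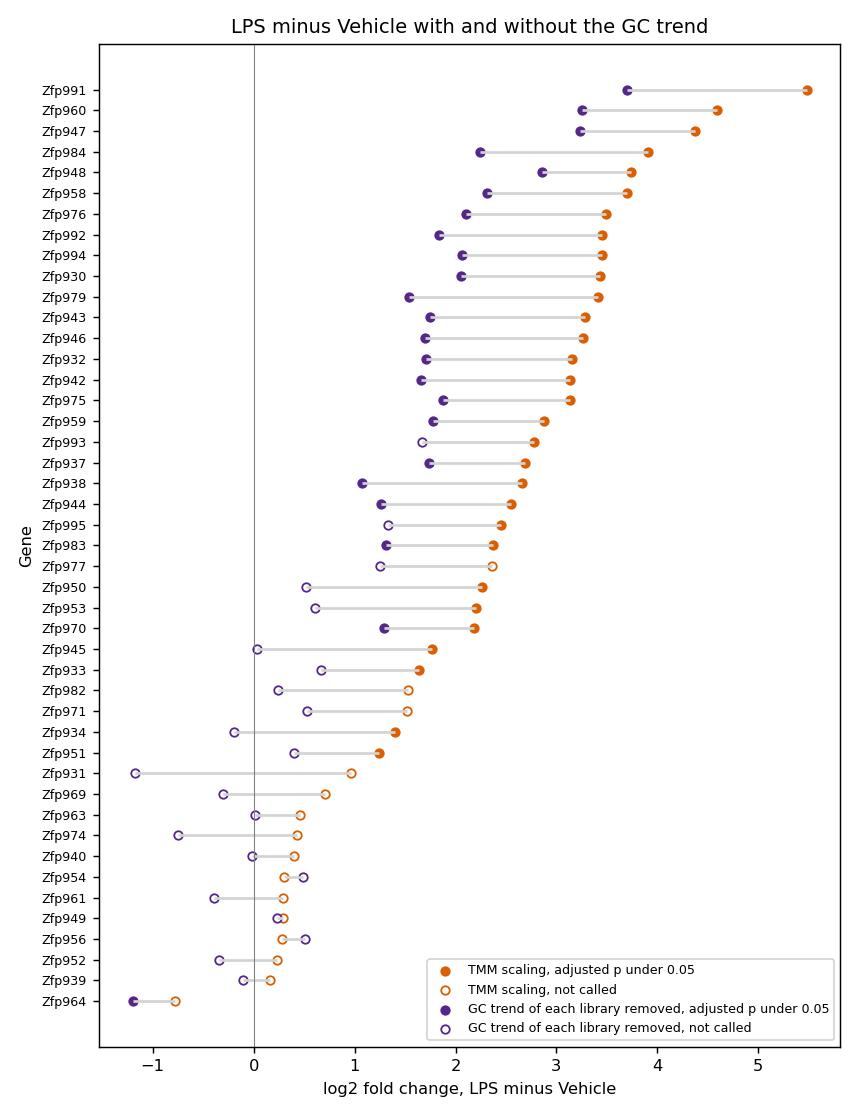
Log2 fold change of LPS minus Vehicle (x axis) for the 45 tested members (y axis) as first fitted (orange) and with each library's GC trend removed (purple), filled where the adjusted p is under 0.05 and open where not. Most members move to the left, Zfp991 from 5.48 to 3.69, and Zfp945 and Zfp934 move to about 0 or below.

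Copies that share sequence leave it uncertain which of them a read came from, and how reads that fit several places were counted is not given in the sources used here. Of the 50-base stretches of Zfp991, 82.8% also occur in another annotated gene: 66.2% in the pseudogene Znf41-ps, 58.3% in Zfp992 and 36.2% in Zfp993. For Zfp960 the share was 85.1%, with 83.8% in its neighbour Zfp97, and for Zfp947 it was 20.4%. The median over all 64 members was 23.8%, over the tested ones 11.8% and over the 19 untested ones 70.7%, beside 0.533% over all genes tested.

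The partners had higher counts after LPS as well. Zfp97 had a mean of 0.185 CPM in Vehicle, 2.96 in LPS and 2.60 in LPS+TSLP. Znf41-ps had 8 counts over the Vehicle libraries, 290 over LPS and 249 over LPS+TSLP. Zfp992 had 27, 288 and 320, and Zfp993 had 12, 81 and 119, of which 10 of the 12 Vehicle counts came from replicate 3. Counts were also summed over copies, which takes out how counted reads were divided among them but not reads that were never counted, so the part of shared reads was not tested by it. The group of Zfp991, Zfp992, Zfp993 and Znf41-ps had a log2 fold change of 4.35 (SE 0.40) in LPS, and Zfp960 with Zfp97 one of 4.21 (SE 0.97). Zfp984 with Gm13212, in which 51.1% of the stretches of Zfp984 occur, had 3.82 (SE 0.45).

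Some members share hardly any sequence. Zfp948 shares 0% of its 50-base stretches with other genes, Zfp958 0.345%, Zfp945 0.809% and Zfp933 2.06%. Of the 22 tested members under 10% sharing, 13 were higher in LPS with a median log2 fold change of 1.98, and of the 23 at or over 10%, 17 were higher with a median of 2.77. With the GC trend removed these became 8 of 22 (median 0.57) and 14 of 23 (median 1.67). Over all genes tested 14.2% were called higher, and 10.8% with the GC trend removed, and nothing is read from the members' shares.

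LPS+TSLP against LPS was not used to choose the members, although it rests on the same LPS libraries, and it is the comparison that can be tested. It asks whether TSLP changed the levels seen after LPS. No member was called: 0 of 45 passed in either direction by edgeR's quasi-likelihood test, where 0% of all 17139 genes were, and 1 member had an unadjusted p under 0.05, where 8.1% of all genes did. The DESeq2 Wald test called 0 of the 42 members to which it gave an adjusted p and 35 of all 15448 such genes (0.227%), 0.142% of them higher and 0.0842% lower. The median log2 fold change of the 45 was −0.00, beside 0.02 over all genes, and 22 were above 0. Without LPS+TSLP replicate 1 the median was 0.17, and without LPS replicate 1 as well it was 0.15, with 0 called both times.

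Zfp991 had a log2 fold change of −0.45 between LPS+TSLP and LPS (95% interval −1.09 to 0.18, edgeR adjusted p = 0.729), Zfp960 one of 0.01 (−1.56 to 1.57, adjusted p = 0.999) and Zfp947 one of −0.05 (−1.54 to 1.43, adjusted p = 0.991). For 18 of the 45 the 95% interval lay within a 2-fold change either way, so for the other members a 2-fold difference in at least 1 direction is inside the interval and a lack of calls does not show equal levels.

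The extremes were Zfp964 and Zfp940, picked here after their values were seen. Zfp964 (chromosome 8, 69654479 to 69666982), the only tested member that was lower in LPS than in Vehicle, had 2.75, 3.10 and 2.02 CPM in Vehicle, 1.10, 1.58 and 1.89 in LPS, and 2.5, 2.59, 3.16 and 2.87 in LPS+TSLP. LPS lay below both other groups without overlap, as LPS+TSLP lies above LPS in 3.88% of all genes tested, and the log2 fold change of LPS+TSLP over LPS was 0.86 (95% interval 0.12 to 1.60, edgeR adjusted p = 0.589). Zfp940 (chromosome 7, 29833620 to 29853669) had 2.62, 3.22 and 2.78 CPM in LPS and 1.47, 1.5, 2.02 and 2.14 in LPS+TSLP, with 1.20 to 2.81 CPM in Vehicle. LPS+TSLP lay below LPS without overlap, as in 3.54% of all genes, and the log2 fold change was −0.69 (95% interval −1.49 to 0.12, adjusted p = 0.673).

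**Figure D5:**
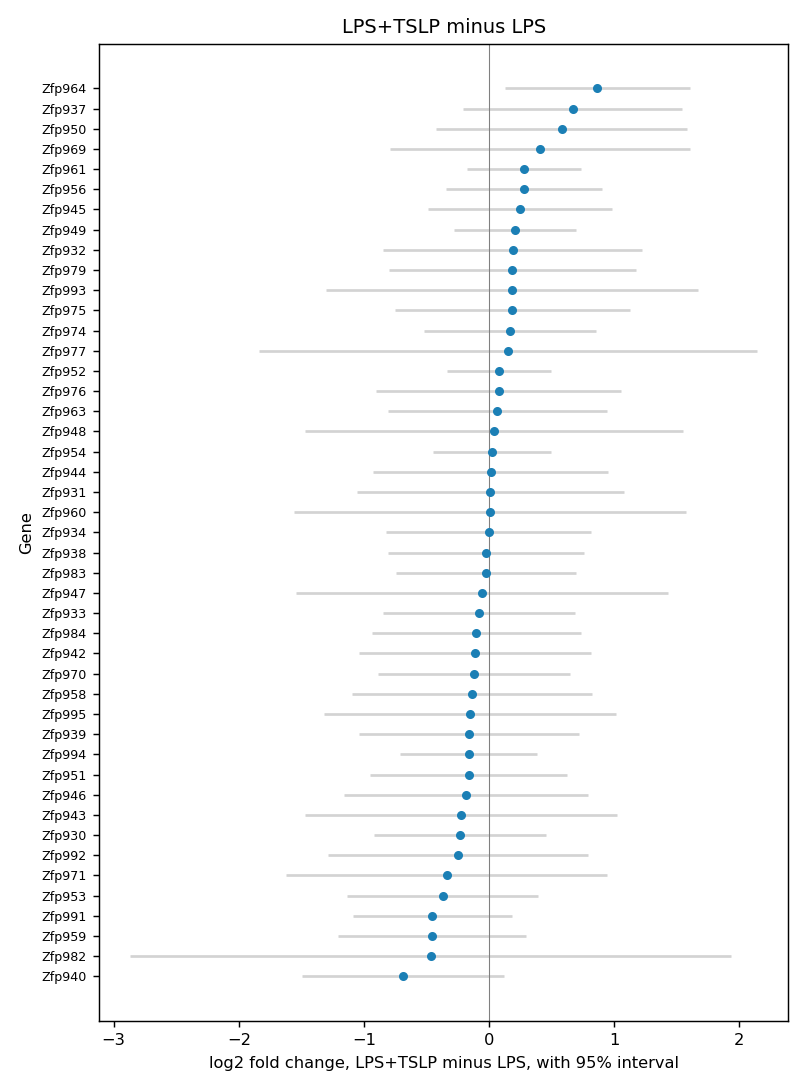
Log2 fold change of LPS+TSLP minus LPS (x axis) with its 95% interval for each of the 45 tested members (y axis). The points run from −0.69 (Zfp940) to 0.86 (Zfp964), and 44 of the 45 intervals include 0.

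The machinery that KRAB zinc finger proteins work through was followed with a list of 28 symbols, of which 27 were in the table and all 27 were tested. The symbol not found, Tasor, is another name of Fam208a, which was in the table. In LPS 7 were higher and 6 lower than in Vehicle, and in LPS+TSLP 6 were higher and 3 lower. The shares of all genes tested were 14.2% higher and 10.7% lower in LPS, and 8.82% and 5.35% in LPS+TSLP. The scaffold Trim28 itself had 161, 161 and 166 CPM in Vehicle, 119, 99.6 and 133 in LPS, and 172, 111, 107 and 143 in LPS+TSLP. LPS lay below Vehicle, but the log2 fold change of −0.47 (SE 0.215) was not called (edgeR adjusted p = 0.124). Setdb1, the methyltransferase that Trim28 recruits, had a log2 fold change of −0.29 (adjusted p = 0.37).

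Those that rose in LPS include Mphosph8 and Fam208a, subunits of the HUSH silencing complex, at log2 fold changes of 2.57 (SE 0.58, edgeR adjusted p = 0.0113) and 1.98 (SE 0.37, adjusted p = 0.00576). Pphln1, another HUSH subunit, had −0.20 (SE 0.24, adjusted p = 0.559). Resf1, a retroelement silencing factor, rose by 3.59 (SE 0.52, adjusted p = 0.00237) and the chromatin remodeller Atrx by 2.56 (SE 0.55, adjusted p = 0.00948). The other 3 were Smarcad1 (1.48), Suv39h2 (1.38) and Morc3 (1.08). Those that fell were Chd3 (−1.43), Dnmt3a (−0.91), Atf7ip (−0.85), Dnmt1 (−0.83), Cbx5 (−0.72) and Ehmt2 (−0.55). All 7 that rose have a GC content of at most 43.5%, and in LPS+TSLP replicate 1 Mphosph8 was at 3.13 CPM, beside 2.70 to 3.71 in Vehicle and 17.0 to 24.8 in LPS+TSLP replicates 2 to 4. With the GC trend removed 3 of the 27 were higher in LPS (Resf1, Mphosph8 and Atrx) and 4 lower (Chd3, Cbx5, Atf7ip and Cbx3). Cbx3 went from 0.18, not called, to −1.09. Fam208a was at 0.75 (edgeR adjusted p = 0.072). In LPS+TSLP 5 were higher at this setting, the same 3 with Fam208a (1.11) and Smarcad1 (0.80), and 4 lower. Of all genes tested 10.8% were then higher and 9.45% lower in LPS, and 4.64% and 4.04% in LPS+TSLP. In LPS+TSLP against LPS 0 of the 27 were called.

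Markers of other cells were read beside the members. The summed level of 8 neutrophil genes was 373 to 1164 CPM in Vehicle, 1540 to 2104 in LPS and 557 to 1065 in LPS+TSLP, with 1 called higher in LPS. The 557 CPM is that of LPS+TSLP replicate 1, where Ltf had 437 CPM, beside 33.3 to 35.2 in LPS+TSLP replicates 2 to 4. S100a8, S100a9, Ly6g, Csf3r, Cxcr2, Mmp8 and Retnlg were lower in that library than in every Vehicle library. S100a8 had 23.4 CPM there, beside 84.5 to 250 in Vehicle. Of 8 T cell genes none were called, with sums of 86.8 to 141 CPM in Vehicle, 86.7 to 151 in LPS and 66.9 to 144 in LPS+TSLP, and of 8 B cell genes 1 was lower in LPS, with sums of 102 to 211, 99.1 to 163 and 134 to 221 CPM. Of 5 thymocyte genes 1 was tested and 0 were called, and their sums of 9.82 to 16 CPM in Vehicle, 0 to 16 in LPS and 10.9 to 15.4 in LPS+TSLP are nearly all Cd1d1, which other cells express too (11.98 CPM on average in Vehicle and 0 in LPS replicate 3). Ptcra, Rag1, Rag2 and Dntt had group means of at most 0.558 CPM. The 6 germ cell genes summed to 0.112 to 0.374 CPM in Vehicle, 0.889 to 2.13 in LPS and 0.793 to 2.11 in LPS+TSLP, with Tnp1 at 0 in every library, 1 tested and 0 called. Of 3 tested skeletal muscle genes 0 were called (sums of 1.58 to 10.9, 1.19 to 2.68 and 1.34 to 13.2 CPM), and of 3 tested fat genes 1 was lower in LPS (28.1 to 214, 15.5 to 39.9 and 13.3 to 18.6 CPM). Of 9 lung genes 1 was higher and 1 lower in LPS. Beside these counts, 14.2% of all genes tested were called higher and 10.7% lower in LPS. The part of any of these cells in the members' levels was not tested.

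The promoters of all members with an entry were read from RefSeq (GRCm38.p6), from 250 bases before the start of a transcript to 50 after it, which gave 61 promoters of 53 members, 30 of them from 25 members called higher in LPS. Those of Zfp947 (chr17:22165928-22166227, minus strand), Zfp984 (chr4:147809739-147810038, minus strand) and Zfp948 (chr17:21566728-21567027, plus strand) are shown because these genes stand near the top of the order. Capitals mark CCAAT or its reverse complement, a box known to bind the factor NF-Y.
Zfp947: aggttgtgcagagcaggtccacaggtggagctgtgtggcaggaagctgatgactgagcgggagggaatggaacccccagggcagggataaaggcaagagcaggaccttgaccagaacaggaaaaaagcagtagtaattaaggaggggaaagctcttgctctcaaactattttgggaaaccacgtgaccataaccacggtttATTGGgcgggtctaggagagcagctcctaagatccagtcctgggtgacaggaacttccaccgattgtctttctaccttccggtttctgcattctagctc
Zfp984: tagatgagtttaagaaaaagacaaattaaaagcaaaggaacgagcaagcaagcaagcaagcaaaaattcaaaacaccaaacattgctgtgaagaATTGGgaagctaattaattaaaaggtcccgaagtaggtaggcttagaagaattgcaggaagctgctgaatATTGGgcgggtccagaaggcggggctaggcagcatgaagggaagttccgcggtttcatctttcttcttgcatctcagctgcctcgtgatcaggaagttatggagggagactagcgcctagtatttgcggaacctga
Zfp948: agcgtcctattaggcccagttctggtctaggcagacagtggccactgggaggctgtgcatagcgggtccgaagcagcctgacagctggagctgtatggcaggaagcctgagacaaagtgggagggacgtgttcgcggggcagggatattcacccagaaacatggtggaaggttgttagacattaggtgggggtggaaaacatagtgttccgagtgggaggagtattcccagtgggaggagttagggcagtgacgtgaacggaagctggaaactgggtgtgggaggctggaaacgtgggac
Zfp947 and Zfp984 hold the box and Zfp948 does not. Over both strands CCAAT was in 47 of the 61 member promoters (77.0%), in 20 of the 30 promoters of members called higher in LPS, and in 37.4% of all 32544 promoters. GGGCGG can share bases with the reverse complement of CCAAT, as it does in Zfp947 and Zfp984. It was in 21 of 61 (34.4%), 9 of them of members called higher, and in 35.9% of all. TATAAA was in 0 of 61 and in 13.6% of all, and TGANTCA, the letters of an AP-1 site, was in 0 of 61 and in 7.79% of all. A pattern of the NF-kB site was in 2 of 61, both of members called higher, and in 1.47% of all. CACGTG was in 7 of 61, all of members called higher, and in 7.17% of all. A pattern of the interferon response element was in 4 of 61, 1 of them of a member called higher, and in 3.45% of all. The called members were chosen on these data and hold 30 of the 61 promoters, so nothing is read from these splits.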

How the data were processed

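RNA of whole lung was sequenced in 10 libraries. The authors deposited unnormalized counts for each gene. The submitters' processing notes name CASAVA, HISAT2, HTSeq 0.6.0 and the build GRCm38/mm10. The annotation release and strand setting are not given in the sources used here. Counts were filtered with filterByExpr, scaled by TMM and tested with edgeR 4.0.16 (robust quasi-likelihood, R 4.3.3), all 10 libraries in 1 fit of 3 groups (7 residual degrees of freedom), with Benjamini-Hochberg adjustment over 17139 genes and calls at an adjusted p under 0.05, two-sided. Intervals are 95% and use the fit's degrees of freedom. Alternatives included DESeq2 1.42.0, other scalings and filters, a loess GC trend (span 0.3) removed by offsets, summed counts of paralogues, and each library left out. Sharing was gauged on 50-base stretches of GENCODE M21 transcripts, sampled 1 in 8. The fit was tested on simulated data.

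The members and gene lists were chosen with earlier results of these data known. Genes named are Zfp991, Zfp960 and Zfp947, the 6 largest and 6 smallest changes among called members (mean of the higher group 1 CPM or more), the 5 highest per kilobase, members within 500 kb of the 3, the silencing list, and genes sharing at least 50% of their stretches with one of the 3. Others were named after their values were seen. Coding sequences came from GENCODE transcripts and promoters from RefSeq. Total counts per library limit the precision: genes with few reads have wide intervals, which cover the spread between libraries.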

Additional observations from a re-analysis of the deposited data

Results flagged for a closer look

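In 3 of the 25 named members whose 4 LPS+TSLP libraries were examined for a single value far from the rest, LPS+TSLP replicate 1 lay far below the other libraries. Zfp943 had 2.88 CPM there and 19.2 to 22.3 CPM in LPS+TSLP replicates 2 to 4. Zfp946 had 1.92 CPM there and 9.09 to 10.1 CPM in the others. Zfp979 had 1.15 CPM there and 4.14 to 4.58 CPM in the others. In each, more than 0.8 of the range of the 4 libraries lay between that library and the next. Chance alone singles out about 1 group in 20. The members share this library, so the 3 are not separate observations.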

How the results depend on the processing

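The count of higher members changed most with GC content. In LPS against Vehicle, removing the GC trend lowered the median from 2.37 to 1.26 and gave 1 lower member. In LPS+TSLP against Vehicle it lowered the median to 1.21 and the count from 29 to 18. The share of all genes called higher there went from 8.82% to 4.64%. Members above 0 went from 44 to 36 of 45 in LPS and from 44 to 37 in LPS+TSLP. Of those that turned, Zfp934 reached −0.19 in LPS and −0.21 in LPS+TSLP and Zfp982 −0.18 in LPS+TSLP. Zfp931 (−1.17), Zfp974 (−0.75), Zfp961 (−0.39), Zfp952 (−0.34), Zfp969 (−0.30), Zfp939 and Zfp940 turned in LPS as well, and none of these 7 was called at either setting. The labels give replicate numbers but do not say that they pair libraries, and same-numbered libraries correlated at −0.34 to 0.40. Libraries of different number in different groups correlated at −0.46 to 0.37. A replicate block gave 29 and 28 higher members and turned Zfp982 in LPS+TSLP (−0.18). The block with the GC trend removed gave 18 and 15 higher members, medians of 1.23 and 1.18, Zfp934 at −0.20 and −0.0528, and Zfp982 at −0.0368 and −1.40. Leaving out each library in turn gave 24 to 32 higher members in LPS and 19 to 32 in LPS+TSLP, the 19 without Vehicle replicate 2, and medians of 2.30 to 2.61 and 2.20 to 2.63. In LPS+TSLP against LPS it gave 0 calls and medians of −0.23 to 0.17. The cause of these changes was not tested. Shares of all genes called with the replicate block or with libraries left out are not given here. Those counts therefore cannot tell a change in the members from a change in all genes. With 100-base stretches the median shared part of the members was 6.80%, beside 23.8% with 50. The removal of the 2 libraries that stand apart was added after seeing the data. Genes with few reads, such as Zfp960, Zfp947 and Zfp982, are limited by depth.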
